A study of Homo sapiens with 3 samples.

Results

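The genes of the proteasome, the cell's main protease for proteins tagged with ubiquitin, were taken from the deposited gene table as the protein-coding genes whose symbols run from PSMA to PSMG followed by a number. This gave 48 of the 58302 genes in the table. Only the gene type and the symbol decided which genes entered, but the family itself was chosen with earlier results of these data known. Of the 48 genes, 46 had enough counts to be tested, among 17263 genes tested in all. The other 2, PSMA8, an alpha subunit of the male germline, and PSMB11, a catalytic subunit of the thymus, had 0 counts in every library. At these depths 0 counts allow up to 3 counts, which is between 0.157 and 0.171 CPM (counts scaled to a common library total).

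RNA was sequenced in 3 libraries from HCT116, an established human colorectal cancer line. The cells of 1 library carried a control small interfering RNA (siRNA), and the cells of the other 2 carried siRNA 1 or siRNA 2, each aimed at DUOX2, an NADPH oxidase that releases hydrogen peroxide. The series describes the comparison as one of low DUOX2 against control, which the DUOX2 counts of these libraries, at or near 0 throughout, cannot show. The siRNA libraries were treated as replicates 1 and 2 of a single group, and no label says that they came from separate cultures. The only replicate spread behind the p-values is that between these 2 libraries, which may be technical. The 2 libraries carry different siRNAs, so this spread also takes in any difference between the siRNAs. The edgeR test moderates each gene's spread with that of the other tested genes (4.66 prior degrees of freedom, against 1 residual). No dose or time after transfection is given in the sources used here.

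The 26S proteasome consists of a barrel-shaped 20S core, in which rings of alpha subunits (PSMA) enclose rings of beta subunits (PSMB) that hold the cutting sites, and a 19S particle that binds ubiquitin, unfolds the substrate and feeds it into the core. The 19S base carries a ring of ATPases (PSMC), and the lid and the rest of the base are PSMD proteins. PSMG and some PSMD proteins are assembly chaperones that leave the finished complex, PSME proteins are alternative activators of the core, and PSMF1 was described as an inhibitor of it. In many cell types the subunit genes are induced together by NFE2L1 when proteasome activity falls, and interferon induces a set of catalytic subunits that makes the immunoproteasome.

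The siRNAs are what set the libraries apart, and they are shown as sense and antisense strands. The capitals of a sense strand mark its unpaired TT end, and those of an antisense strand mark its seed, bases 2 to 8, through which an siRNA can also pair with other transcripts.
siRNA 1 sense: ggaggacaacauagugguuTT
siRNA 1 antisense: aACCACUAuguuguccucctt
siRNA 2 sense: ccaugaugcgauccuucauTT
siRNA 2 antisense: aUGAAGGAucgcaucauggtt
control sense: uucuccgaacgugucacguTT
control antisense: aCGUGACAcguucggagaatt
No 19-base paired stretch matched a transcript of the 48 genes. The fewest mismatches were 4 of 19 bases for siRNA 1, in PSMA2, 6 for siRNA 2, in PSMB2, and 4 for the control, in PSMA6. A 7-base site for the seed of siRNA 1, TAGTGGT, was present in the longest transcript of 4 of the 46 tested genes (8.70%), against 11.9% of all tested genes. The site for the seed of siRNA 2, TCCTTCA, was present in 12 of 46 (26.1%), against 29.4% of all tested genes. The medians that follow are of each siRNA's own library against the control, 1 library against 1 and without a test. With siRNA 2 the 12 genes with its site had a median log2 fold change of 0.07 and the others of -0.05. Over all tested genes the siRNA 2 medians were -0.02 with the site and 0 without. With siRNA 1 the 4 genes with its site had a median of -0.29 against 0.12 for the others. Over all tested genes those with the siRNA 1 site had the higher median, 0.18 against -0.01.

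Library totals were 17589502 counts for the control, 19130768 for siRNA 1 and 18832672 for siRNA 2. DUOX2 had 2, 2 and 0 counts in that order, all under the limit of 3 counts, so the target gives no check of the labels. The epithelial label held in part. EPCAM, KRT8, KRT18 and KRT19 were abundant, CDX1 and CEACAM5 were at 0 in every library, and 7 of 10 colorectal markers were tested, with a summed level of 3284 to 5349 CPM. The library protocol speaks of retinas, but the retina markers SAG, PDE6B, GNAT1, CRX and RPE65 were at 0 counts in every library, RLBP1 had 136, 76 and 104 counts, NRL 14, 13 and 11, PDE6A 10, 6 and 4, and RCVRN 0, 3 and 0. Fibroblast markers summed to 2.30 to 3.75 CPM and leukocyte markers to 1.12 to 2.22 CPM, with PTPRC, COL1A2, DCN and LUM at 0.

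Transcripts of the proteasome genes were abundant in all 3 libraries. Together they took 0.666% of counts in the control (95% Wilson interval 0.662 to 0.670), 0.665% with siRNA 1 (0.661 to 0.669) and 0.690% with siRNA 2 (0.686 to 0.693), where the intervals cover counting error only. Levels between genes are given as CPM per kilobase of merged exons, and on that scale the median of the 46 genes was 31.7 in the control, 33.4 under siRNA 1 and 35.6 under siRNA 2. The medians of all tested genes were 4.11, 3.49 and 3.76. Those genes include 1943 pseudogenes and 753 antisense genes, whereas the members are all protein-coding, so the backgrounds are not alike. The counts of single members ran from 82 for PSMB10 with siRNA 1 to 9197 for PSMD2 with siRNA 1, which corresponds to a counting error of 11.0% down to 1.04%.

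The order of levels followed the parts of the complex only loosely. In the control library PSMA7, an alpha subunit, was highest at 179, followed by PSMB7 at 142, PSMC2 at 120 and PSMB4 at 102. With siRNA 1 and siRNA 2 PSMB7 was highest, at 203 and 179, and PSMA7 stood at 118 and 139. On this scale the other 6 alpha subunits were lower, between 15.7 (PSMA6) and 36.5 (PSMA1) in the control. Each alpha subunit is present in equal number in the core. The scale divides by merged exon length, so the gap depends on the annotated lengths. PSMA7 has 1750 such bases and 5504 control counts, and PSMA4 has 6996 bases and 3100 counts. PSMG4, an assembly chaperone with 10418 merged exon bases, was the lowest member on this scale in every library at 1.71, 1.54 and 1.53. By counts PSMB10 was the lowest in every library. PSMD9 and the immunoproteasome subunit PSMB9 were next in the control, at 3.43 and 3.85.

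**Figure D1:**
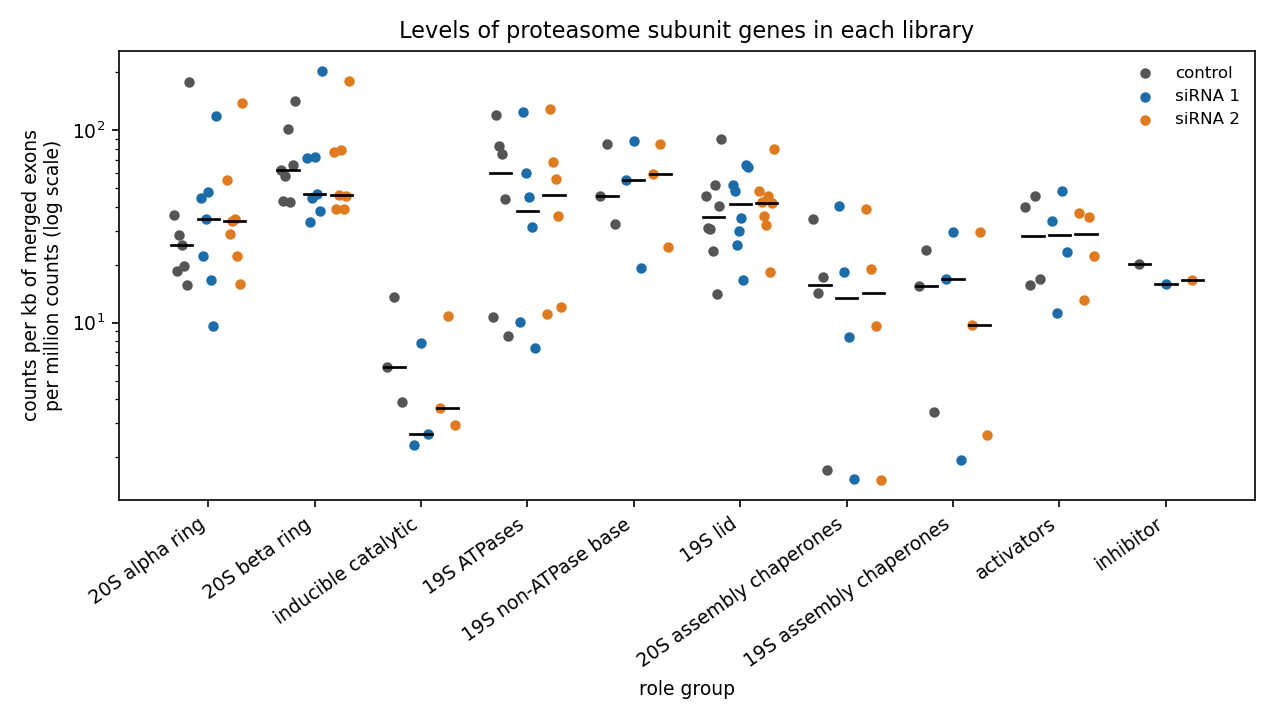
Level of each of the 46 expressed proteasome genes in the 3 libraries (1 point per gene and library, log axis, CPM per kilobase of merged exons), with black bars at the median of each role group. PSMG4 lies lowest in each library, and PSMA7 (control) and PSMB7 (both siRNAs) highest.

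The comparison of both siRNA libraries with the control asked whether RNA levels of the complex's genes differed when DUOX2 was targeted. No proteasome gene passed edgeR's quasi-likelihood test at an adjusted p of 0.05, 0 higher against 0.0174% of all tested genes and 0 lower against 0.0405%. The smallest edgeR adjusted p was 0.127, for PSMG3. DESeq2, which called 3.12% of all tested genes, also called 0 members, with its smallest adjusted p of 0.12 for PSMA4. In bulk RNA, fewer cells of a type and less RNA per cell cannot be told apart.

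The genes of the complex did not lie on one side of the control. The median log2 fold change of the 46 genes was 0.02, against 0.01 for all tested genes, with 23 values above 0 and 23 below (20 and 26 with total count scaling, which lowers the median of all genes by 0.10). The median absolute change was 0.34, against 0.47 for all tested genes. Both siRNA libraries lay above the control for 19 genes (41.3%, against 41.9% of all tested genes) and both lay below it for 20 (43.5%, against 41.6%), and for 7 the control lay between them.

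At an unadjusted edgeR p under 0.05, 6 genes were higher (13.0%, against 11.5% of all tested genes), namely PSMA1, PSMA4, PSMB7, PSMD12, PSMD14 and PSME4. At the same level 3 were lower, PSMB6, PSMB10 and PSMG3 (6.52%, against 14.5%). Each siRNA library was also set against the control by size alone, without a test. With siRNA 1, 5 genes were more than 1.5-fold higher (10.9%, against 20% of all tested genes) and 7 more than 1.5-fold lower (15.2%, against 25.3%). With siRNA 2 there were 2 higher (4.35%, against 14.8%) and 3 lower (6.52%, against 20.3%). These counts share 1 control library, so each siRNA's values are given side by side and their overlap is not read as a result.

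**Figure D2:**
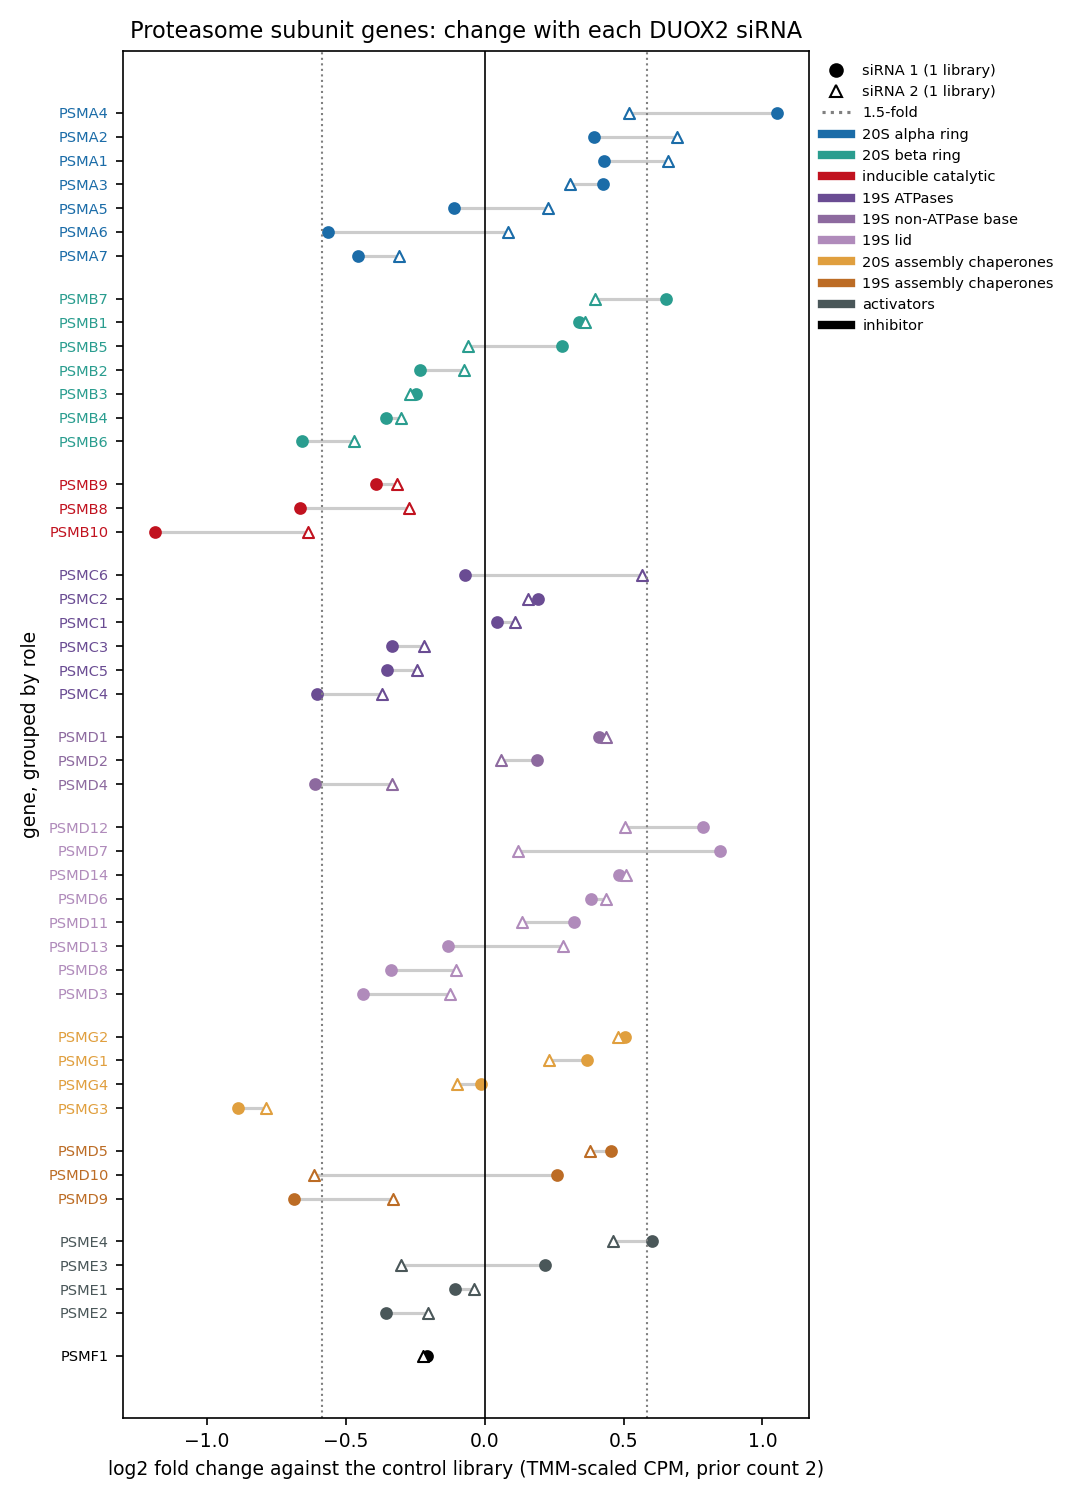
Log2 fold change of each of the 46 tested proteasome genes with siRNA 1 (filled circles) and siRNA 2 (open triangles) against the single control library, grouped and coloured by role, with dotted lines at 1.5-fold. PSMA4 with siRNA 1 lies farthest right at 1.05 and PSMB10 with siRNA 1 farthest left at -1.19.

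In the alpha ring, which gates entry to the core, 5 of 7 genes had positive log2 fold changes (4 with total count scaling) and the median was 0.37. PSMA4 (ENSG00000041357, chromosome 15, 78540405 to 78552419 in GRCh38) had 3100 counts in the control, 6356 under siRNA 1 and 4566 under siRNA 2. Both siRNA libraries were above the control, and the log2 fold change was 0.81 ± 0.27 (SE; edgeR adjusted p = 0.156), with 2.08-fold for siRNA 1 and 1.43-fold for siRNA 2. PSMA1 had 2119, 2815 and 3441 counts, PSMA2 had 1742, 2259 and 2892, and PSMA3 had 1561, 2071 and 1986. All 3 were above the control with either siRNA, with log2 fold changes of 0.55, 0.55 and 0.37. PSMA7, the most abundant alpha subunit, went the other way. It had 5504 counts in the control, 3957 under siRNA 1 and 4566 under siRNA 2, a log2 fold change of -0.38 ± 0.18 (edgeR adjusted p = 0.247). With the trend on transcript GC content removed, the value for PSMA7 was 0.0093, and the group's median was 0.01. For PSMA5 (1993, 1823 and 2397 counts) and PSMA6 (1798, 1198 and 1955 counts) the siRNA libraries lay on opposite sides of the control.

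The beta ring, which holds the catalytic sites PSMB5, PSMB6 and PSMB7 beside noncatalytic subunits, had a median of -0.15, with 3 genes positive and 4 negative. PSMB7, the trypsin-like subunit (ENSG00000136930, chromosome 9, 124353466 to 124415444), had 4462 counts in the control, 6934 under siRNA 1 and 6035 under siRNA 2 (log2 fold change 0.53 ± 0.21, edgeR adjusted p = 0.181). PSMB6, the caspase-like subunit (ENSG00000142507, chromosome 17, 4796144 to 4798503), had 1675, 1048 and 1240 counts (log2 fold change -0.56 ± 0.21, edgeR adjusted p = 0.173). PSMB5, the chymotrypsin-like subunit and the main target of proteasome inhibitor drugs, had 1315, 1574 and 1295 counts. The 3 catalytic subunits of the standard core thus stood above the control, below it and around it. Among the noncatalytic subunits PSMB1 had a log2 fold change of 0.35, PSMB2 of -0.15, PSMB3 of -0.26 and PSMB4 of -0.33.

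The inducible catalytic subunits, which replace the standard ones in the immunoproteasome, had fewer counts with either siRNA, and none passed the test. Their median log2 fold change was -0.46. PSMB8, which replaces PSMB5, had 720 counts in the control, 447 under siRNA 1 and 612 under siRNA 2. PSMB9, which replaces PSMB6, had 208, 156 and 171 counts. PSMB10, which replaces PSMB7 (ENSG00000205220, chromosome 16, 67934502 to 67937087), had 192, 82 and 126 counts. In each of these 3 genes the control was highest and siRNA 1 lowest. Their log2 fold changes were -0.46 for PSMB8, -0.36 for PSMB9 and -0.90 ± 0.35 for PSMB10, with edgeR adjusted p values of 0.304, 0.423 and 0.183. Set against its standard partner on the level scale, PSMB10 stood at 4.15% of PSMB7 in the control, 1.14% under siRNA 1 and 2.01% under siRNA 2. PSMB8 stood at 32.2% of PSMB5 in the control, 16.7% under siRNA 1 and 27.8% under siRNA 2. The size of such a ratio depends on the gene lengths used. From the deposited FPKM values, PSMB8 stood at 62.8%, 32.6% and 54.2% of PSMB5, and PSMB10 at 3.19%, 0.877% and 1.55% of PSMB7. The length behind the FPKM of PSMB8 was 3082 bases, although its distinct exons sum to 5008. For PSMB5 that length equalled the sum, 3534, so the FPKM ratio of PSMB8 to PSMB5 rests on unlike lengths. The ratio of PSMB9 to PSMB6 went the other way, at 5.85%, 7.02% and 6.50%, a log2 change of 0.26 with siRNA 1 and 0.15 with siRNA 2, but with the GC trend removed these changes were -0.26 and -0.25. The other ratios kept their sign under that removal, at -0.82 and -0.11 for PSMB8 to PSMB5 and -1.10 and -0.47 for PSMB10 to PSMB7. The standard subunit's transcript was thus the more abundant of each pair in every library.

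The 19S ATPases, which unfold substrates, had a median of -0.10, with 3 positive and 3 negative values. PSMC2, the most abundant, had 7498 counts in the control, 8445 under siRNA 1 and 8579 under siRNA 2. PSMC4 (chromosome 19, 39971005 to 39981441) had 3175, 2062 and 2521 counts, both siRNA libraries lower, with a log2 fold change of -0.48 ± 0.20 (edgeR adjusted p = 0.200). PSMC6, the highest of the group at 0.28 ± 0.31, had 1120, 1052 and 1703 counts, with siRNA 1 slightly below the control and siRNA 2 above it. With the GC trend removed it was -0.17. PSMC3 had 3327, 2607 and 2937 counts, PSMC5 had 3476, 2689 and 3014, and PSMC1 had 1166, 1188 and 1291.

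In the non-ATPase base, the scaffold subunits PSMD1 and PSMD2 and the ubiquitin receptor PSMD4 did not lie together. PSMD1 had 4172 counts in the control, 5475 under siRNA 1 and 5801 under siRNA 2 (log2 fold change 0.42 ± 0.18, edgeR adjusted p = 0.207). PSMD2, the member with the most counts, had 8184, 9197 and 8761 and a log2 fold change of 0.13. PSMD4 had 1734, 1119 and 1412 counts, lower with both siRNAs (log2 fold change -0.47 ± 0.22, edgeR adjusted p = 0.239).

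The lid, whose subunit PSMD14 cleaves ubiquitin from the substrate, had a median of 0.32, with 6 of 8 genes positive (5 with total count scaling). PSMD14 had 3193 counts in the control, 4411 under siRNA 1 and 4665 under siRNA 2, a log2 fold change of 0.50 ± 0.18 (edgeR adjusted p = 0.172), and -0.18 with the GC trend removed. PSMD12, a structural lid subunit (ENSG00000197170, chromosome 17, 67337916 to 67366627), had 2918, 4965 and 4258 counts (log2 fold change 0.65 ± 0.21, edgeR adjusted p = 0.150). PSMD7, the partner of PSMD14, had 1942, 3450 and 2168 counts, so its 1.80-fold with siRNA 1 stood beside 1.09-fold with siRNA 2. PSMD6 had 2265, 2918 and 3151 counts and PSMD11 had 5777, 7133 and 6518. Both were above the control in either siRNA library, although PSMD6 was at -0.06 with the GC trend removed. PSMD13 had 2568, 2315 and 3208 counts, with siRNA 1 below and siRNA 2 above the control. PSMD8 (4897, 3828 and 4686 counts) and PSMD3 (4542, 3305 and 4277 counts) were below the control with both siRNAs, with log2 fold changes of -0.21 and -0.27 (0.14 and -0.07 with the GC trend removed).

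Assembly chaperones held the member with the smallest p-value. PSMG3, which with PSMG4 guides assembly of the alpha ring (ENSG00000157778, chromosome 7, 1567330 to 1571005), had 596 counts in the control, 317 under siRNA 1 and 354 under siRNA 2. That is 0.540-fold and 0.580-fold, and a log2 fold change of -0.84 ± 0.22 (edgeR adjusted p = 0.127). Its partner PSMG4 had 313, 306 and 300 counts, while PSMG1 (1527, 1946 and 1842) and PSMG2 (840, 1178 and 1204), which form the other chaperone pair, were above the control in both siRNA libraries. Among the chaperones of the 19S base, PSMD5 had 1851, 2506 and 2474 counts and PSMD9 had 530, 324 and 432. PSMD10, known as gankyrin, had 671 counts in the control, 794 under siRNA 1 and 449 under siRNA 2, on opposite sides of the control.

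Of the activators, PSME4, which caps the core without ATP, had 3027 counts in the control, 4538 under siRNA 1 and 4283 under siRNA 2 (log2 fold change 0.53 ± 0.19, edgeR adjusted p = 0.166). PSME1 and PSME2, which form the interferon-inducible activator ring, had 1251, 1147 and 1250 counts and 993, 765 and 884 counts. PSME3, the nuclear activator, had 4141, 4754 and 3446 counts, on opposite sides of the control. PSMF1 had 1889, 1613 and 1661 counts and a log2 fold change of -0.22.

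The siRNA libraries were also set against each other, which leaves the control out. The median absolute log2 difference between them was 0.16 over the 46 genes and 0.24 over all tested genes. PSMD7 and PSMD10 were more than 1.5-fold higher with siRNA 1 than with siRNA 2 (4.35%, against 8.99% of all tested genes), and PSMA6 and PSMC6 more than 1.5-fold lower (4.35%, against 8.76%). The log2 differences were 0.73 for PSMD7, 0.88 for PSMD10, -0.65 for PSMA6 and -0.64 for PSMC6. There is 1 library on each side, so this difference has no test.

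Fold changes of the proteasome genes moved with the GC content of their transcripts, as those of other genes did. Of 16 members under 45% GC, 13 had positive log2 fold changes, with a median of 0.39, and of 18 members with at least 50% GC, 15 had negative ones, with a median of -0.28. The 12 members between these bounds had a median of 0.08. Over all tested genes the medians of the same 3 classes were 0.43, 0.12 and -0.51 in order of rising GC. Across the 46 members Pearson's r between GC and log2 fold change was -0.67 and Spearman's rank correlation -0.66, against -0.53 and -0.69 across 17209 genes with a known GC content. These describe genes that share the same 3 libraries and are not independent replicates.

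The role groups differ in GC content as well. The alpha ring had a median GC of 40.7% and the inducible catalytic subunits of 53.8%. With each library's trend on GC removed, the median log2 fold change of the alpha ring was 0.01 (0.37 before), that of the lid 0.11 (0.32 before) and that of the inducible catalytic subunits -0.22 (-0.46 before). The SD of the 46 values went from 0.42 to 0.30. The sign changed for 13 of 46, namely PSMA3, PSMA5, PSMA7, PSMB1, PSMB3, PSMC2, PSMC3, PSMC6, PSMD6, PSMD8, PSMD14, PSME1 and PSMG4, and 3 had an unadjusted edgeR p under 0.05 (PSMB4, PSMB7 and PSMG2; 6.52%, against 10.2% of all genes). The value for PSMG3 was then -0.23, for PSMA4 0.45, for PSMB7 0.57 and for PSMB10 -0.22.

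**Figure D3:**
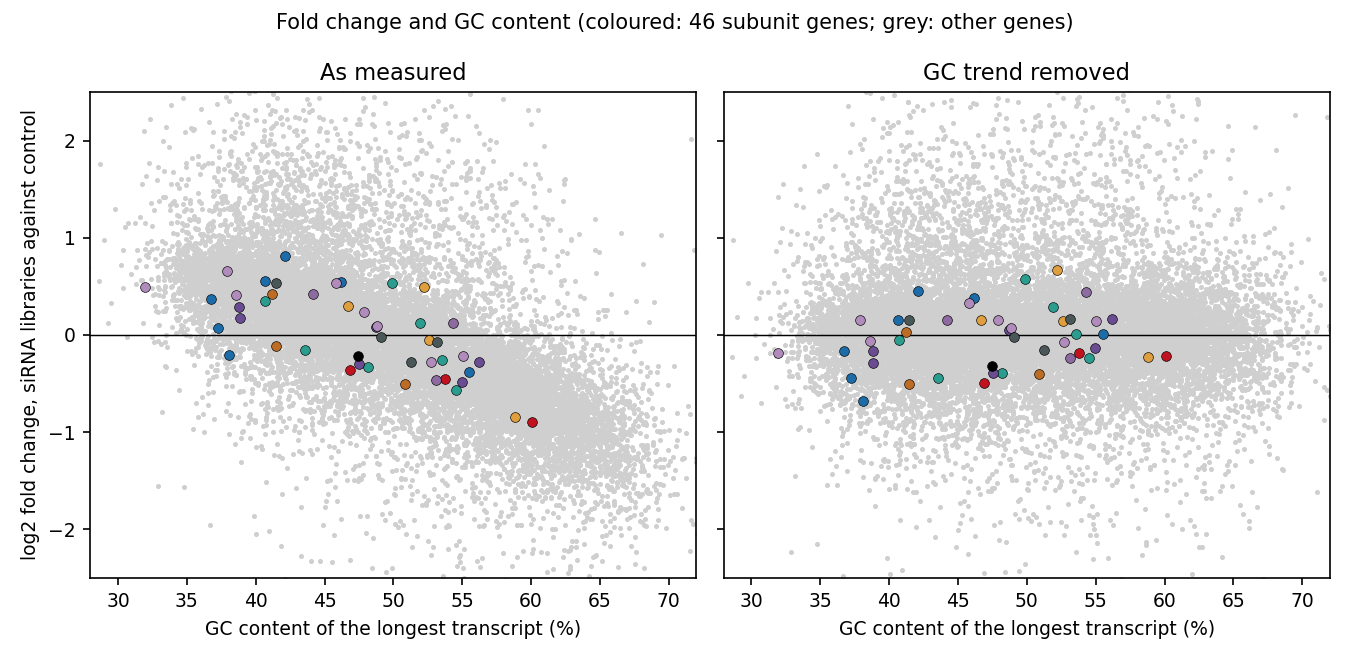
Log2 fold change of the siRNA libraries against the control plotted against GC content (percent of the longest transcript) for the 46 proteasome genes (coloured by role) and all other tested genes (grey), as measured on the left and with the GC trend of each library removed on the right; the axes are cropped for the grey points. The slope across the coloured points (Pearson's r of -0.67) is replaced by 0.20 after removal.

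Many proteasome genes have processed copies elsewhere in the genome, and the table counts reads for them. Pseudogenes named or described as copies numbered 66, for 24 of the 48 genes. For PSMC1 the copies held most of the reads, 4413 counts in the control against 1166 for the gene itself, 5548 against 1188 with siRNA 1 and 5142 against 1291 with siRNA 2. That is 79.1%, 82.4% and 79.9% of the reads of gene and copies. A single copy, PSMC1P1, had 4292, 5158 and 4800 of them. For PSMC6 the copies held 779, 1029 and 1378 counts, most in AC046176.1. Reads that fit gene and copy alike cannot be divided without knowing how they were counted, so the values of PSMC1 and PSMC6 are uncertain. The same limit applies to PSMA6, PSME2 and PSMD4, with smaller shares in copies. In the control, siRNA 1 and siRNA 2 libraries these shares were 9.01%, 26.3% and 15.8% for PSMA6. They were 11.7%, 20.1% and 17.8% for PSME2, and 11.4%, 15.2% and 15.3% for PSMD4.

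Of the copies, 18 had enough counts to be tested. All 18 had a positive log2 fold change, with a median of 1.02, while 77.3% of the 1943 pseudogenes tested were positive, with a median of 0.68. With total count scaling 16 of the 18 were positive, and with the GC trend removed 15. None passed edgeR's adjusted threshold, 9 were higher at an unadjusted p under 0.05 (against 11.5% of all tested genes), and DESeq2, with 3.12% of all tested genes called, called 1, AC117409.1. For PSMD12P the counts were 18, 110 and 56, for PSMD7P1 92, 301 and 177, and for AC117409.1, a copy of PSMC2, 157, 416 and 399 (DESeq2 adjusted p = 0.0395). Adding the copies to each gene moved the log2 fold change of PSMA6 from -0.21 to -0.01, that of PSMC1 from 0.08 to 0.23 and that of PSMC6 from 0.28 to 0.43, and left 0 genes called. The same sum moved PSME2 from -0.28 to -0.15 and PSMD4 from -0.47 to -0.40.

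**Figure D4:**
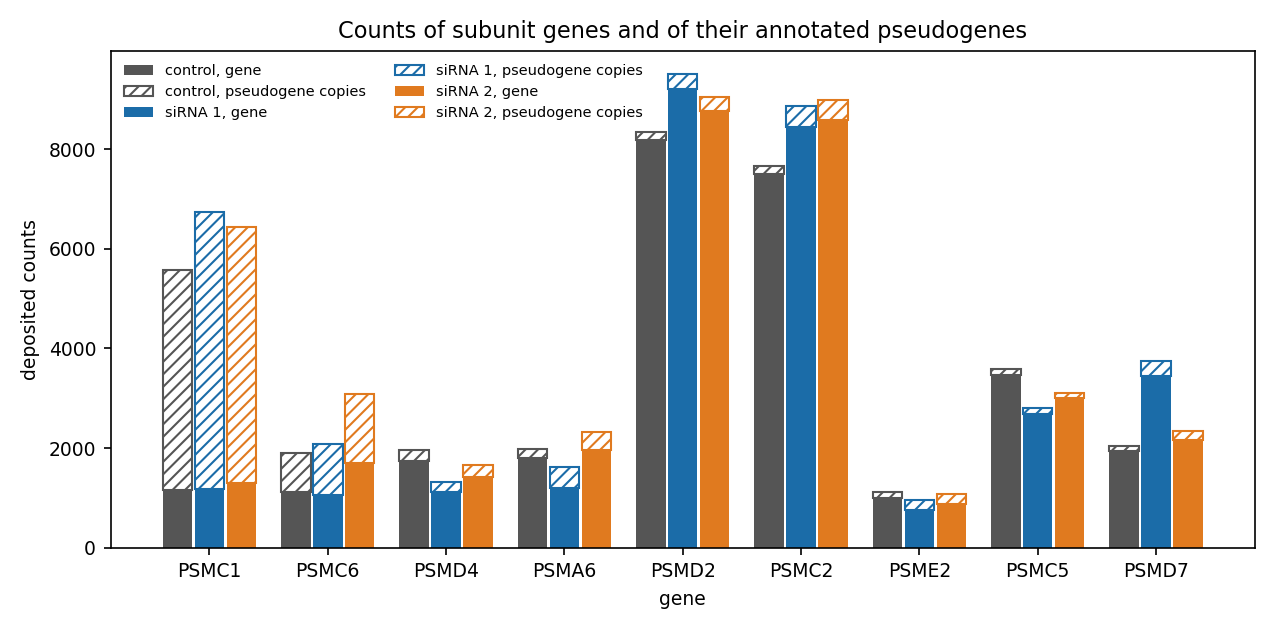
Deposited counts of 9 proteasome genes (solid) and of their annotated pseudogene copies (hatched, stacked on top) in the control, siRNA 1 and siRNA 2 libraries, for the genes with the most counts in copies. The copies of PSMC1 exceed the gene in each library.

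Exons shared with neighbouring genes make further members uncertain. For 12 of the 48 genes at least 10% of the exon bases overlap another gene's exons, 8 on the opposite strand and 4 on the same one. PSMC1 shares 75.8% with NRDE2 on the opposite strand. PSMB10 shares 34.8% with AC040162.1 on its own strand, a gene with 93, 45 and 45 counts. PSMA6 shares 14.1% with AL121594.1, also on its own strand, which had 715 counts in the control, 1952 under siRNA 1 and 608 under siRNA 2. The high value of that neighbour and the low value of PSMA6 fall in the same library, and the sums of the pair were 2513, 3150 and 2563 counts. The remaining 9 are PSMA1, PSMA2, PSMB8, PSMC5, PSMD1, PSMD7, PSMD9, PSMG2 and PSMG4.

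Promoters of proteasome genes are known for antioxidant response elements, which NFE2L1 and NFE2L2 bind with small MAF partners. RefSeq (GRCh38.p14) start-site windows, from 250 bases before to 50 after the start, were matched for 42 of the 48 genes, in 51 windows. The core TGACNNNGC, searched on both strands, was present in 15 of the 51 windows (29.4%), against 13.4% of 35116 windows of all genes, and belonged to 15 genes. CCAAT, also searched on both strands and able to share an end letter with that core, was found in 20 of 51 (39.2%), against 34.6%. The following windows hold the core upstream of the start and touch no annotated exon, and show where the core lies, with the core in capitals, 5' to 3' on the gene's strand.
PSMD12, chr17:67366703-67366773, minus strand: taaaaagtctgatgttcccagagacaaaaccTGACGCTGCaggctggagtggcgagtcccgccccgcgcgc
PSME1, chr14:24136077-24136147, plus strand: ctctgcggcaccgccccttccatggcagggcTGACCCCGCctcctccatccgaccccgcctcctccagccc
PSMB3, chr17:38752606-38752676, plus strand: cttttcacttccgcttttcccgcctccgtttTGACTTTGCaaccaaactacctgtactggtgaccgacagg
PSMB9, chr6:32854013-32854083, plus strand: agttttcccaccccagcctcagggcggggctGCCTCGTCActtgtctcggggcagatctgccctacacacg
PSMD9, chr12:121888610-121888680, plus strand: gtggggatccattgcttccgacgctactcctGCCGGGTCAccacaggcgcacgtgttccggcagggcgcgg
In PSMB9 and PSMD9 the core shown lies on the other strand and is printed as its reverse complement. PSMD9 has another core upstream, on the gene's own strand at -102 from the start. Its window also touches no annotated exon and is not printed. The log2 fold changes of these genes were 0.65 for PSMD12, -0.07 for PSME1, -0.26 for PSMB3, -0.36 for PSMB9 and -0.50 for PSMD9. Over the 15 genes with the core the median was -0.07, within a range of -0.50 to 0.81, and over the 25 tested genes without it the median was 0.08. A match describes the letters in the window and does not show binding.

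The regulators of these genes were measured too. NFE2L1, which drives proteasome gene induction, had 4533 counts in the control, 3551 under siRNA 1 and 3969 under siRNA 2. Its log2 fold change was -0.28, and 0.09 with the GC trend removed. NFE2L2, the oxidative stress regulator, had 970, 2306 and 2325 counts, both siRNA libraries far above the control, with a log2 fold change of 1.25 ± 0.21. It did not pass edgeR (adjusted p = 0.109) and passed DESeq2 (adjusted p = 0.00113). MAFF, a small MAF partner, had 983, 76 and 239 counts (log2 fold change -2.66 ± 0.57, edgeR adjusted p = 0.114; DESeq2 adjusted p = 0.00163). MAFG, another such partner, had 1378, 724 and 649 counts (log2 fold change -1.01, DESeq2 adjusted p = 0.0431). With the GC trend removed, the log2 fold changes were 1.04 for NFE2L2, -1.90 for MAFF and -0.50 for MAFG. Of the 11 genes in this list 0 passed edgeR. At an unadjusted edgeR p under 0.05, 2 were higher and 3 lower (against 11.5% and 14.5% of all tested genes), and 1 and 1 with the GC trend removed. DESeq2, which called 3.12% of all tested genes, called 3 of the list, NFE2L2, MAFF and MAFG. The list's median was -0.28, against 0.01 for all tested genes, and 0.06 with the GC trend removed.

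Of 12 genes whose products bind, build or regulate the proteasome without a PSM symbol, 0 passed edgeR or DESeq2. At an unadjusted edgeR p under 0.05, 3 were higher and 1 lower (against 11.5% and 14.5% of all tested genes), and with the GC trend removed 0 and 0. Positive values numbered 11 (10 with total count scaling and 8 with the GC trend removed), with a median of 0.39, or 0.05 with the GC trend removed. Of all 17263 tested genes 8764 were positive. The median GC content of the list was 42.5%, and of tested genes under 45% GC 5351 of 6227 were positive. TXNL1, a thioredoxin bound to the 19S particle, had 1093, 1974 and 1896 counts (log2 fold change 0.82). POMP, the chaperone that completes the 20S core, had 1808, 2697 and 3051 counts. ADRM1, a ubiquitin receptor of the 19S particle, was the exception below the control, with 5666, 2403 and 3560 counts (log2 fold change -0.94 ± 0.25, edgeR adjusted p = 0.127, and -0.02 with the GC trend removed).

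Upstream in the pathway, 0 of 6 genes for ubiquitin and its activating enzymes passed edgeR or DESeq2, and 1 was higher and 1 lower at an unadjusted edgeR p under 0.05 (against 11.5% and 14.5%; 0 and 0 with the GC trend removed). Their median was 0.05, and -0.05 with total count scaling. UBA1, the main activating enzyme, had 12679, 8634 and 9999 counts and UBA6, the second one, had 1664, 2920 and 2672. Among 10 shuttle factors and cofactors of the p97 ATPase 0 passed edgeR or DESeq2, and 1 was lower at an unadjusted edgeR p under 0.05 (against 14.5%; 0 with the GC trend removed). Their median was 0.05, or -0.05 with total count scaling, between RAD23B at 0.37 and NPLOC4 at -0.52. Of the 11 genes that induce the immunoproteasome or use its peptides 0 passed edgeR, and 4 were lower at an unadjusted edgeR p under 0.05 (against 14.5% of all tested genes, and 0 with the GC trend removed). Negative values numbered 8, with a median of -0.42, or -0.18 with the GC trend removed. Of all 17263 tested genes 8499 were negative. The list's median GC content was 57.5%, and of tested genes with at least 50% GC 6399 of 7773 were negative. HLA-B, which presents peptides, had 3285 counts in the control, 1608 under siRNA 1 and 1873 under siRNA 2. It was the 1 gene of the 11 that passed DESeq2 (adjusted p = 0.028, against 3.12% of all tested genes called). Its edgeR adjusted p was 0.113. B2M, its partner chain, had 2357, 3949 and 3084 counts.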

How the data were processed

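The deposited table holds raw read counts per gene and FPKM values made by the authors, for 3 libraries of 1 ug total RNA each. The submitters' processing notes name Bowtie 0.12.2 and 2 builds, GRCh38 and mm8, without roles. How reads were counted, by strand or among multiple placements, is not given in the sources used here. All 48 members have the coordinates of GENCODE 29 (GRCh38). The gene length in the deposited FPKM equals the sum of all distinct exons, overlapping bases counted again, for 92.1% of 13047 genes with at least 50 counts (within 0.5 bases) and for 44 of 46 members. The members without that equality were PSMB8 (3082 bases against 5008) and PSMD11 (10858 against 12997). The length in the deposited FPKM was 1.03 (PSMB8) to 3.25 (PSMB4) times the merged exon length, so levels between genes use merged exons in place of FPKM.

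Counts were tested with edgeR 4.0.16 (R 4.3.3), with TMM scaling, filterByExpr at a minimum count of 10, glmQLFTest (1 residual degree of freedom) and Benjamini-Hochberg adjustment over 17263 genes at 0.05. The scripts were tested on simulated data. Values per siRNA are differences of log2 CPM (prior count 2). DESeq2 1.42.0, limma 3.58.1 on log2 FPKM, other scalings and filters, a GC offset (lowess, fraction 0.3, longest GENCODE 29 transcript) and counts summed with pseudogenes were alternatives. The PSM genes, lists and rules were chosen with earlier results of these data known. Named genes are the highest, lowest, most and least abundant in each role group, the catalytic pairs, members with overlaps or copies, and the extremes of each further list. The other members are given so that each is accounted for. Other genes, namely POMP, NFE2L1, MAFG, single copies and overlapping neighbours, were chosen after their values were seen. The 95% intervals and the counting errors cover counting error only and treat each read as independent. PCR reads lacking molecular identifiers do not count independent molecules, so both may be too small.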

Additional observations from a re-analysis of the deposited data

How the results depend on the processing

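The number of proteasome genes passing the adjusted threshold stayed at 0 in each direction under every alternative run: other scalings and filters, DESeq2, limma on FPKM, the GC offset and counts summed with pseudogenes. The sum with pseudogenes matched by description was added after seeing the data. The median log2 fold change of the 46 genes was 0.02, and it was -0.0761 with total count scaling, -0.0397 with the GC trend removed, -0.062 with limma on FPKM with a pseudocount of 1 and -0.0912 with a pseudocount of 0.1. Total count scaling moved the median of all genes by -0.10, and so did limma with a pseudocount of 0.1. Leaving out 1 siRNA library, which leaves 1 library against 1 and no test, gave medians from -0.0425 to 0.0104. With the GC trend removed, members beyond 1.5-fold numbered 7 with siRNA 1 (12 before) and 2 with siRNA 2 (5 before). The share of all tested genes beyond 1.5-fold was not computed in that setting. The SD of log2 fold changes over all tested genes also fell, from 0.93 to 0.78, so the drop is not read as particular to the members. In the same setting PSMA7 went from -0.38 to 0.0093 and PSMC6 from 0.28 to -0.17. The number called over all genes was 10 in the test used, 539 with DESeq2, 9 with total count scaling, and 0 with the GC trend removed, with limma, with no filter and with a filter of 1 CPM in each library. No paired analysis was possible because the control library carries no replicate number in the labels, so the groups share no pairs. The precision is limited by a single control library and 1 residual degree of freedom, and counting error per member reached 11.0%, for PSMB10 with siRNA 1.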

Other observations

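Of the noncoding genes that carry a proteasome gene's name, those described here had values of their own, and none of them passed edgeR. PSMA3-AS1, antisense to PSMA3, had 707 counts in the control, 1213 under siRNA 1 and 1089 under siRNA 2 (log2 fold change 0.70 ± 0.23, edgeR adjusted p = 0.155). PSMG3-AS1, which overlaps 3.06% of the exon bases of PSMG3, had 118, 71 and 44 counts (log2 fold change -1.04 ± 0.41, edgeR adjusted p = 0.188), with both siRNA libraries below the control, as for PSMG3. PSMB8-AS1, which overlaps PSMB8 and PSMB9, had 70, 22 and 56 counts, with siRNA 1 lowest. PSMD6-AS2 had 53, 53 and 57 counts. PSMD6-AS1, which overlaps 4.83% of the exon bases of PSMD6 on the opposite strand, was not among the genes examined. Reads of a gene and its antisense partner cannot be told apart where the strand was not used in counting, and whether it was is not given in the sources used here.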
